A study of Mus musculus with 8 samples.

Results

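The tumour necrosis factor (TNF) superfamily was followed through 39 genes, 14 encoding ligands and 25 encoding receptors, among 19938 genes measured on Affymetrix whole-transcript arrays. Members were genes whose symbol begins with Tnfsf or Tnfrsf, together with Tnf, Lta, Ltb, Fasl and Cd70 as ligands and Ltbr, Fas, Cd27, Eda2r and Edar as receptors. Each member had 1 probe set of its own, and a probe set shared by Tnfsf12, Tnfsf13 and another symbol was not used. Flow cytometric sorting gave myeloid dendritic cells from mouse bone marrow and classical dendritic cells from mouse spleen, in 4 samples per tissue with 1 array each. The same 4 identifying numbers occur in both tissues in the labels, and they were read here as 4 mice that gave both samples. All 8 samples came from mice aged 8 weeks of genotype CX3CR1-gfp/+, in which an allele of the fractalkine receptor gene carries a green fluorescent protein reporter. The sources used here do not name the surface markers of the sort.

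Ligands of this family are trimeric proteins, most of them made as membrane proteins from which a soluble form can be cut. Their receptors carry cysteine-rich repeats outside the cell. Inside the cell they recruit TRAF adaptors that activate NF-kappaB, or, where they have a death domain, adaptors that can start apoptosis. On dendritic cells these molecules are known for costimulating T cells, for supporting B cell survival and, through lymphotoxin, for the upkeep of dendritic cells in the spleen.

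Values are array intensities on a linear scale, which the authors had summarised per probe set, and a log2 fold change is bone marrow minus spleen. Array medians lay between 125 and 135 on all 8 arrays. No detection call was used here, so the 95th percentile of 1027 olfactory receptor genes on the same array, 89.2 to 106 in bone marrow and 88.0 to 103 in spleen, served as a mark of dim signal. By that mark 21 members were above it on all 8 arrays, 10 on some arrays and 8 on none, and the fold change of a dim gene can be compressed by background. Of 10 classical dendritic cell markers 6 were lower in bone marrow and none higher, with a summed intensity of 53421 to 56964 in bone marrow and 59165 to 64377 in spleen. Their log2 fold changes ran from -1.81 for Snx22, through -1.28 for the transcription factor gene Zbtb46, -1.05 for the growth factor receptor gene Flt3 and -0.40 for the integrin gene Itgax, to 0.07 for the class II gene H2-Ab1. All 10 were above the mark on every spleen array and all but Snx22 on every bone marrow array. Of 10 markers of the cDC1 subset 1 was higher and 4 lower, with log2 fold changes from -3.49 for Xcr1 to 0.85 for Cadm1. Of 10 markers of the cDC2 subset 4 were higher and 4 lower, from -2.79 for Dtx1 to 3.35 for Clec10a. Of 8 measured plasmacytoid dendritic cell markers 1 was higher and 3 lower, from -1.45 for Ccr9 to 0.78 for Bst2. Markers of other cells differed too. Of 14 neutrophil markers 13 were higher in bone marrow, with a summed intensity of 22306 to 30524 in bone marrow and 2063 to 2773 in spleen. All 7 measured classical monocyte markers (29759 to 32844 in bone marrow, 13490 to 15147 in spleen) and 10 of 12 macrophage markers (26548 to 38245 in bone marrow, 6229 to 7130 in spleen) were higher. Of 11 B cell markers 2 were higher and 7 lower (2022 to 2146 in bone marrow, 3818 to 4310 in spleen), of 11 T cell markers 6 were lower (1061 to 1333 in bone marrow, 1622 to 2120 in spleen), and of 10 NK cell markers 3 were lower (1129 to 1768 in bone marrow, 2733 to 3329 in spleen). Of 9 erythroid markers 7 were higher and 1 lower (2163 to 2795 in bone marrow, 1653 to 1969.7 in spleen), and of 10 basophil and mast cell markers 5 were higher (856 to 1710.2 in bone marrow, 598 to 688 in spleen). No defining marker had an intensity of 0 on any array, but array intensities include background, so this does not show detection. By the olfactory receptor mark, 3 of the T cell, 4 of the NK cell, 6 of the basophil and mast cell and 2 of the erythroid markers were dim on all 8 arrays. Among these dim markers Cpa3, Fcer1a and Rhag were called higher and Themis lower. In such sorted bulk samples a change in the cells present and a change in RNA per cell cannot be told apart, and the part of these markers in the results below was not tested.

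More ligands were lower than higher in bone marrow dendritic cells, and more receptors were higher than lower. The difference between the roles itself was not tested. Of 14 ligands, 2 were higher and 6 lower at a limma adjusted p under 0.05. Of 25 receptors, 6 were higher and 3 lower. Over all genes 9.26% were higher and 9.2% lower, against 14.3% higher and 42.9% lower for the ligands and 24% higher and 12% lower for the receptors. The 17 called members are 43.6% of the family, where 18.5% of all genes were called. On all 8 arrays 8 of the 39 members were dim, against 6592 of all 19938 genes. The median log2 fold change was -0.08 for ligands, -0.02 for receptors and -0.01 for all genes, so the typical member lay near 0 in both roles. The mean log2 intensity of the 14 ligands was 7.11 to 7.23 in the bone marrow arrays and 7.32 to 7.43 in the spleen arrays, and that of the 25 receptors 7.75 to 7.82 in bone marrow and 7.65 to 7.77 in spleen. Without Ltb the ligand mean was 7.01 to 7.08 in bone marrow and 6.98 to 7.12 in spleen, ranges that overlap.

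**Figure D1:**
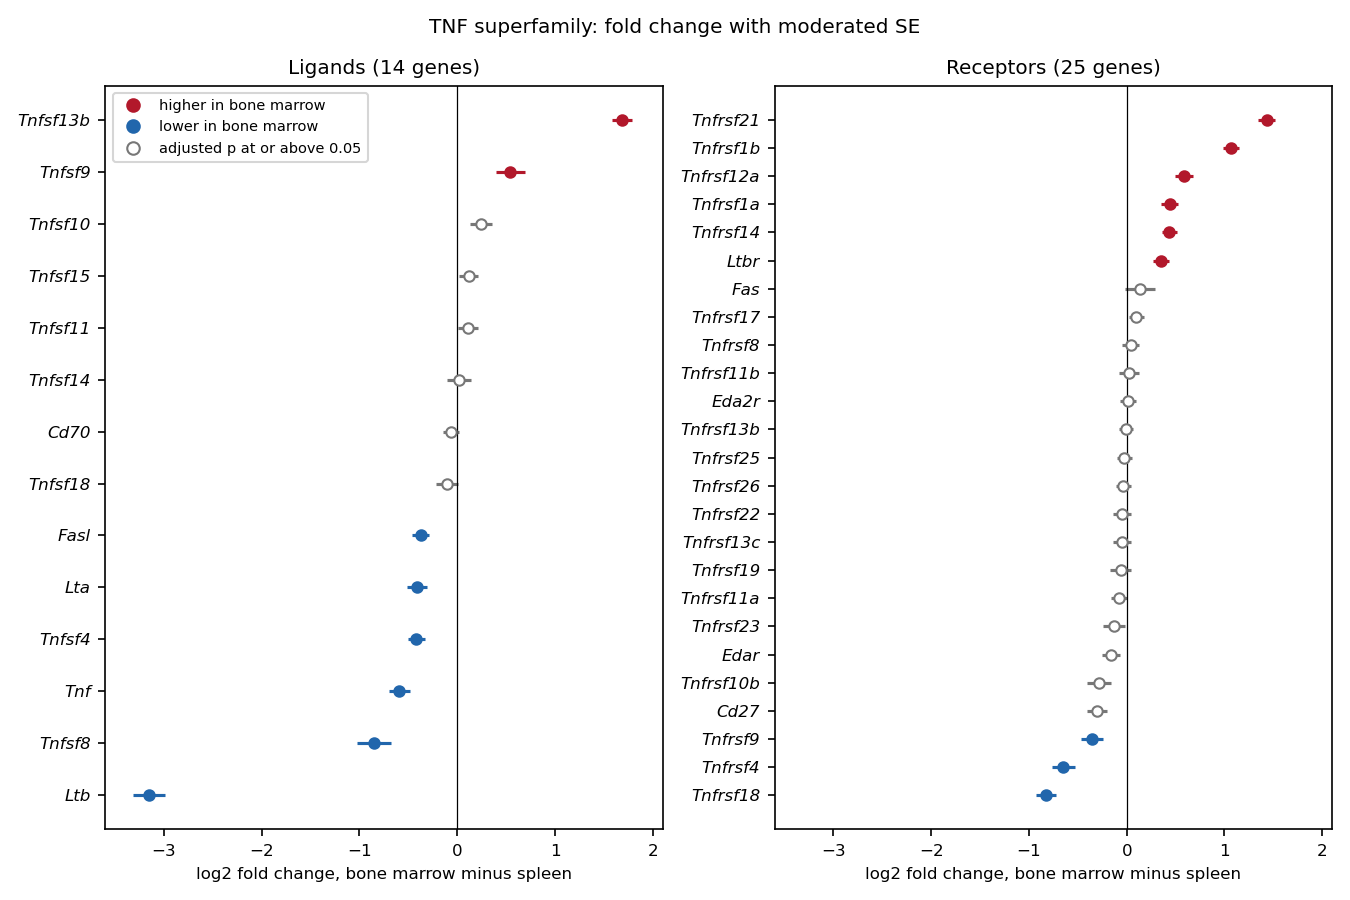
Log2 fold change (x axis, bone marrow minus spleen) of the 14 ligands and 25 receptors, with limma's moderated standard error as bars, from 4 arrays per tissue. Ltb stands at -3.16 and Tnfsf13b at 1.69 among ligands, while receptors run from -0.83 for Tnfrsf18 to 1.43 for Tnfrsf21.

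Lymphotoxin beta showed the largest difference of the family. Ltb, the membrane subunit that holds lymphotoxin alpha at the cell surface and binds the lymphotoxin beta receptor, stood at 347, 411, 316 and 549 in the 4 bone marrow samples, against 3523, 3865, 4136 and 2782 in the spleen samples. The lowest spleen sample lay far above the highest bone marrow sample. Ltb was 8.92-fold lower in bone marrow (log2 difference -3.16, SE 0.16, limma adjusted p = 2.9e-08, 4 arrays in each group). B and T lymphocytes also make lymphotoxin beta, and 7 of 11 B cell and 6 of 11 T cell markers were lower in the same bone marrow samples. The B cell markers had log2 fold changes from -2.35 for Cd22 to 1.21 for Vpreb1, with a median of -0.50. The T cell markers had log2 fold changes from -1.81 for Cd5 to 0.10 for Cd28, with a median of -0.33. Dendritic cell subset markers differed in these samples as well. Of 10 cDC2 markers 4 were lower and 4 higher, from -2.79 for Dtx1 to 3.35 for Clec10a. Of 10 cDC1 markers 4 were lower and 1 higher, from -3.49 for Xcr1 to 0.85 for Cadm1. The part of any of these markers in the Ltb difference was not tested.

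The other lymphotoxin and TNF genes changed less. Tnf, the inflammatory cytokine that names the family, stood at 227, 266, 219.7 and 279 in bone marrow, against 343, 378, 430.1 and 342 in spleen (-0.59 ± 0.10 SE, 4 arrays per group, limma adjusted p = 0.0012). Lta, lymphotoxin alpha, stood at 91.7, 78.6, 89.7 and 71.2 in bone marrow, against 103, 112, 100.0 and 126 in spleen (-0.42 ± 0.10 SE, limma adjusted p = 0.012). Neither gene had overlapping groups, but Lta was below the olfactory receptor mark on all 4 bone marrow arrays and above it on all 4 spleen arrays.

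In the RefSeq gene order of GRCm38.p6, Ltb, Tnf and Lta follow each other on chromosome 17 with 0 protein-coding genes between neighbours, and all 3 were lower in bone marrow. Their promoters are shown as the 250 bases before the RefSeq start, 5′ to 3′ in the direction of the gene, because these neighbours fell together by very different amounts. Capitals mark matches to the kappaB consensus of NF-kappaB or to the TATA box (TATAAA), searched on both strands. The motifs do not overlap in these 3 windows.
Ltb (chr17:35194257-35194506, plus strand): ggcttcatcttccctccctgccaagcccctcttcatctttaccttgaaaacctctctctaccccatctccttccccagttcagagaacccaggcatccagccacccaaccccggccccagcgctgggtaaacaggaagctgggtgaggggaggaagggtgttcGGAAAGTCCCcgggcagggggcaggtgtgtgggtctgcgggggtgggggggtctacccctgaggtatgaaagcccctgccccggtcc
Tnf (chr17:35202008-35202257, minus strand): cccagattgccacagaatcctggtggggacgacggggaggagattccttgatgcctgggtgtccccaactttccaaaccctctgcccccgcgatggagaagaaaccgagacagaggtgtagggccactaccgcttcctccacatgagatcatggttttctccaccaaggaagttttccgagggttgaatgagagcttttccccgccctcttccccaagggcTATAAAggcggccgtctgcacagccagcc
Lta (chr17:35205352-35205601, minus strand): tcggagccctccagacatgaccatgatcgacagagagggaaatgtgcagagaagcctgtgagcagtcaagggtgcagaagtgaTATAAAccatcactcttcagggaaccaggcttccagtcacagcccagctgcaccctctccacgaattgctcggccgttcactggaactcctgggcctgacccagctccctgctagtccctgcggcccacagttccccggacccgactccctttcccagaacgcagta
The Ltb window holds a kappaB match that begins 87 bases before the start, on the opposite strand, and no TATA match. The Tnf window has TATAAA beginning 29 bases before the start, and the Lta window has it 167 bases before the start. Over 32851 promoter windows of the same length, 3.9% hold a kappaB match and 12.4% a TATA match, so neither is rare. A match describes letters in the window and is no evidence of binding.

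The other ligands called were Tnfsf8, Tnfsf4 and Fasl, which were lower in bone marrow, and Tnfsf9 and Tnfsf13b, which were higher. Tnfsf8, the ligand of CD30, stood at 70.0, 115, 95.8 and 148 in bone marrow, against 181, 187, 196 and 184 in spleen (-0.85 ± 0.17 SE, 4 arrays per group, limma adjusted p = 0.0032). The 4 spleen values lay close together while the bone marrow values spread widely below them. Bone marrow replicates 1 and 3 were under the olfactory receptor mark for Tnfsf8. Tnfsf4, the OX40 ligand that costimulates T cells, was 1.34-fold lower at 31.0 to 33.8 in bone marrow and 38.2 to 47.4 in spleen (limma adjusted p = 0.0033), but all 8 values were under the olfactory receptor mark. Fasl, the ligand that triggers death through Fas, stood at 70.5 to 89.3 in bone marrow and 101 to 113 in spleen (-0.38 ± 0.09 SE, limma adjusted p = 0.0086). All 4 bone marrow values and that of spleen replicate 4 were under the mark for Fasl. Tnfsf9, the CD137 ligand, stood at 188, 184, 189 and 182 in bone marrow, against 128, 91.4, 126 and 177 in spleen. The groups did not overlap, though spleen replicate 4 came close to bone marrow (0.54 ± 0.15 SE, 4 arrays per group, limma adjusted p = 0.023). Spleen replicate 2 was under the mark for Tnfsf9. Dropping bone marrow replicate 1 or 3, or spleen replicate 3, ended the Tnfsf9 call (limma adjusted p from 0.053 to 0.056).

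Tnfsf13b was the ligand with the largest rise. This gene encodes BAFF, the survival factor of B cells, which myeloid cells are known to make. It stood at 481, 590.3, 629 and 616 in bone marrow, against 159.9, 200.01, 179 and 178 in spleen, and was 3.22-fold higher in bone marrow (1.69 ± 0.10 SE, 4 arrays per group, limma adjusted p = 1.1e-07). All 4 bone marrow values were above the highest spleen value by a wide margin. In the same bone marrow samples 7 of 7 classical monocyte, 10 of 12 macrophage and 13 of 14 neutrophil markers were higher. The share of all genes was 9.26%. The part of these markers in the Tnfsf13b difference was not tested.

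Its promoter is shown, with those of the 2 receptors that rose most, as the windows beside the largest gains of the family. Capitals mark matches to the interferon-stimulated response element (ISRE, searched as GAAA, any 2 bases, GAAA), on both strands.
Tnfsf13b (chr8:10006217-10006466, plus strand): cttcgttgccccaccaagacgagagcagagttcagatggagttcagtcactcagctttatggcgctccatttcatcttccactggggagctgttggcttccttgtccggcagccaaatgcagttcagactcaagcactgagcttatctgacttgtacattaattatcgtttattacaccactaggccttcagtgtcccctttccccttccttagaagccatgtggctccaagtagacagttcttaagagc
Tnfrsf21 (chr17:43016305-43016554, plus strand): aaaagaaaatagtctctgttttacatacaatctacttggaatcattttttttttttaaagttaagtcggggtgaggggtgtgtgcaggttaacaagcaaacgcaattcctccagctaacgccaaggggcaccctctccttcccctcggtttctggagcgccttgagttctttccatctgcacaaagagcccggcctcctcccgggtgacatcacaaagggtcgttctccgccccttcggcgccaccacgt
Tnfrsf1b (chr4:145246871-145247120, minus strand): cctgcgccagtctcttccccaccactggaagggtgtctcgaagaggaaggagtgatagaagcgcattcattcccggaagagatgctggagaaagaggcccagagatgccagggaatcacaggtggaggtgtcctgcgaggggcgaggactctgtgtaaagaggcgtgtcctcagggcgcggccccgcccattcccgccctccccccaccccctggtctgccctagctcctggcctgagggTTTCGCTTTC
The Tnfrsf1b window holds an ISRE match in its last 10 bases, on the opposite strand, and the Tnfrsf21 window and this Tnfsf13b window hold none. A second RefSeq start of Tnfsf13b, downstream of the first, has an ISRE match beginning 16 bases before it. Of all promoter windows 2.98% hold an ISRE match, and of 36 windows of 32 members with an entry 4 do, those of Tnfsf13b, Tnfrsf1b, Tnfrsf14 and Tnfrsf17. The first 3 of these genes were higher in bone marrow, and Tnfrsf17 was not called. Members with a kappaB match were Ltb, Tnfrsf9 and Tnfrsf8, of which the first 2 were lower and Tnfrsf8 was not called. The Tnfrsf9 match lies before its downstream RefSeq start only. Of all members 20.5% were higher and 23.1% lower, against 9.26% and 9.2% of all genes. A link between motif and call was not tested. The PU.1 core (GAGGAAGT) was found for Tnfsf18 alone among members and in 2.44% of all windows.

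The remaining 6 ligands were not called, with log2 fold changes from -0.10 to 0.24. Tnfsf14, the ligand LIGHT of the lymphotoxin beta receptor and of HVEM, stood at 354 to 533 in bone marrow and 385 to 478 in spleen, and the 95% interval of its log2 fold change ran from -0.24 to 0.28. Tnfsf11, the RANK ligand, and Tnfsf15, which costimulates T cells through DR3, also overlapped between tissues (0.11 ± 0.10 and 0.12 ± 0.10 SE). Tnfsf10, the death ligand TRAIL, stood at 126, 140.1, 99.8 and 136 in bone marrow, against 91.5, 109.8, 105 and 117 in spleen (limma adjusted p = 0.21). Without bone marrow replicate 3, its lowest bone marrow sample, Tnfsf10 passed the threshold (limma adjusted p = 0.034). Cd70 (50.3 to 54.7 in bone marrow, 47.4 to 57.4 in spleen) and Tnfsf18, the GITR ligand (40.5 to 48.7 in bone marrow, 39.7 to 52.8 in spleen), were dim on every array.

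Among receptors, those of TNF and lymphotoxin were higher in bone marrow. Tnfrsf1b, the TNF receptor found mainly on immune cells, stood at 3343, 3109, 2849 and 3316 in bone marrow, against 1605, 1487, 1487 and 1427 in spleen (1.07 ± 0.08 SE, 4 arrays per group, limma adjusted p = 8.2e-07). Tnfrsf1a, the broadly expressed TNF receptor with a death domain, stood at 1561, 1751, 1546 and 1649 in bone marrow, against 1324, 1079.7, 1219 and 1181 in spleen (0.44 ± 0.08 SE, limma adjusted p = 0.0022). Neither receptor had overlapping groups, and the rise was 2.1-fold for Tnfrsf1b and 1.36-fold for Tnfrsf1a. Ltbr, the lymphotoxin beta receptor, stood at 399, 468, 382 and 445 in bone marrow, against 335, 332, 327 and 329.5 in spleen (0.35 ± 0.08 SE, limma adjusted p = 0.0085). Its spleen values were nearly identical and all lay below bone marrow. Tnfrsf14, the receptor HVEM that binds LIGHT and lymphotoxin alpha, stood at 1149, 1251, 1206 and 1209 in bone marrow, against 929, 931, 916 and 789 in spleen (0.44 ± 0.08 SE, limma adjusted p = 0.0016). All 4 receptors are expressed by monocytes and macrophages. In the same bone marrow samples 7 of 7 classical monocyte, 10 of 12 macrophage and 13 of 14 neutrophil markers were higher. Of all genes 9.26% were higher. The part of these markers in the receptor differences was not tested.

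The other 2 receptors that rose were Tnfrsf21 and Tnfrsf12a. Tnfrsf21, the death domain receptor DR6, stood at 2070.5, 2159.5, 2045 and 1998 in bone marrow, against 798, 680.3, 862 and 733 in spleen. It was 2.7-fold higher in bone marrow, the largest rise of any receptor here (1.43 ± 0.09 SE, 4 arrays per group, limma adjusted p = 1.1e-07). Tnfrsf12a, the receptor Fn14 of TWEAK, stood at 381, 379, 366 and 356 in bone marrow, against 227, 258, 225 and 283 in spleen (0.59 ± 0.09 SE, limma adjusted p = 0.00034). In all 6 receptors that rose, the lowest bone marrow sample was above the highest spleen sample. Bone marrow lay wholly above spleen in 10.4% of all genes and wholly below it in 10.2%.

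The 3 receptors that fell are known as costimulatory receptors of T cells. Tnfrsf18, which encodes GITR, stood at 357, 359, 302 and 439 in bone marrow, against 602, 665, 659.9 and 634 in spleen (-0.83 ± 0.10 SE, 4 arrays per group, limma adjusted p = 8.2e-05). Tnfrsf4, which encodes OX40, stood at 233, 200.3, 203 and 215 in bone marrow, against 303, 371, 270.0 and 405 in spleen (-0.65 ± 0.12 SE, limma adjusted p = 0.0017). Both had groups that did not overlap, and both genes are next to each other on chromosome 4 with 0 protein-coding genes between them. Tnfrsf9, which encodes CD137, stood at 188, 146, 173 and 132 in bone marrow, against 214, 210.2, 178 and 211 in spleen. Its groups overlapped, and the call was marginal (-0.36 ± 0.11 SE, 4 arrays per group, limma adjusted p = 0.047). It ended with the replicate number as a block (limma adjusted p = 0.061), with an intensity trend (0.051), and when bone marrow replicate 2, 3 or 4 or replicate 1, 2 or 4 of spleen was dropped (0.051 to 0.13). Of the 11 T cell markers 6 were lower and 5 were not called in the same bone marrow samples. Their median log2 fold change was -0.33, and 9.2% of all genes were lower. The part of these markers in the 3 receptor differences was not tested.

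**Figure D2:**
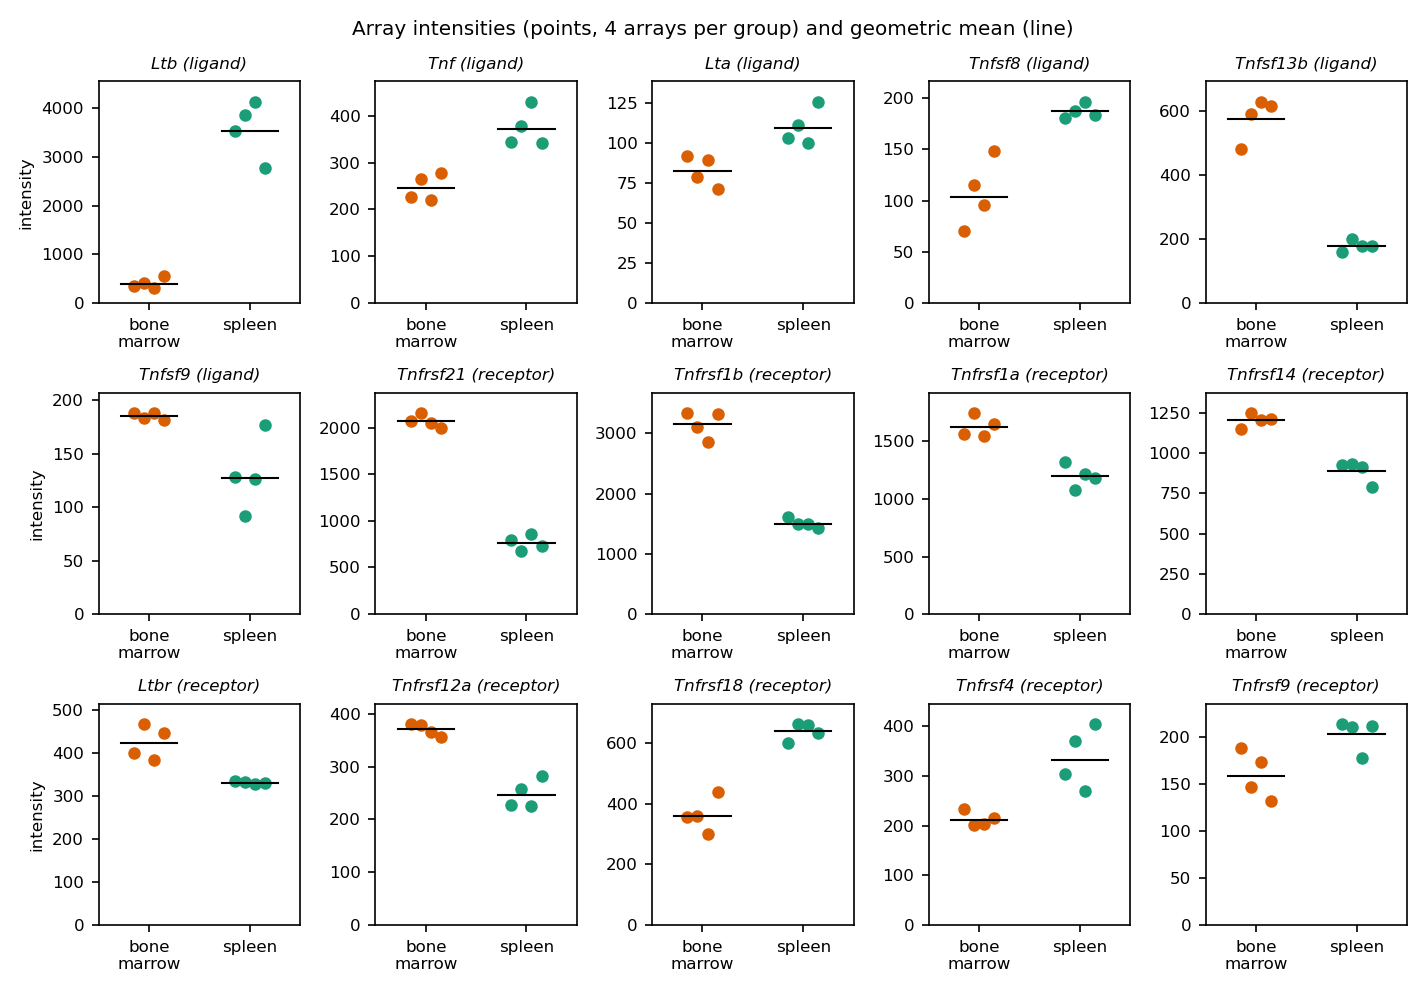
Intensity (y axis, linear, from 0) on each of the 4 bone marrow arrays (left) and 4 spleen arrays (right), with the geometric mean as a line, for 15 of the 17 called members (Tnfsf4 and Fasl are not drawn). Groups lie apart in every panel but Tnfrsf9, and the widest gap is that of Ltb, at 316 to 549 in bone marrow and 2782 to 4136 in spleen.

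The other 16 receptors were not called, with log2 fold changes from -0.30 to 0.14. None of the 3 receptors of BAFF passed the test. Tnfrsf13b, which encodes TACI, stood at 405 to 431 in bone marrow and 397 to 450.5 in spleen, and the 95% interval of its log2 difference was -0.17 to 0.15. Tnfrsf13c, the BAFF receptor, stood at 303 to 348 in bone marrow and 291 to 369 in spleen (interval -0.24 to 0.14), and Tnfrsf17, which encodes BCMA, was dim on every array. Tnfrsf11a, which encodes RANK and is known to prolong dendritic cell survival, stood at 344 to 386 in bone marrow and 354 to 421 in spleen (interval -0.26 to 0.10). Fas, the death receptor, was variable in both tissues, at 174, 252, 219 and 198 in bone marrow, against 172, 157, 184 and 263 in spleen (0.14 ± 0.15 SE, 4 arrays per group, limma adjusted p = 0.70).

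2 uncalled receptors lay near the threshold. Cd27, the receptor of Cd70 on lymphocytes, stood at 73.1, 56.6, 77.0 and 71.4 in bone marrow, against 90.3, 87.2, 84.2 and 79.4 in spleen (-0.30 ± 0.10 SE, 4 arrays per group, limma adjusted p = 0.054). Its groups did not overlap, but every value was under the olfactory receptor mark, and it was called after quantile normalization (limma adjusted p = 0.034) and without bone marrow replicate 3 (0.040). Tnfrsf10b, the death receptor of TRAIL, stood at 70.7 to 82.7 in bone marrow and 76.0 to 112 in spleen (limma adjusted p = 0.14), and was called without spleen replicate 3 (0.037). The decoy receptors of TRAIL, Tnfrsf22 and Tnfrsf23, and the soluble decoy Tnfrsf11b (osteoprotegerin) had log2 fold changes of -0.05, -0.13 and 0.03. Tnfrsf8 (CD30), Tnfrsf25 (DR3), Tnfrsf26, Tnfrsf19 and the ectodysplasin receptors Edar and Eda2r had log2 fold changes of 0.04, -0.02, -0.04, -0.06, -0.17 and 0.01. Of the receptors in this paragraph, Tnfrsf11b, Tnfrsf19 and Eda2r were also dim on every array. Tnfrsf10b and Tnfrsf23 were under the mark on all 4 bone marrow arrays, and Tnfrsf26 was above it on 1 array only.

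Set side by side, ligands and the receptors they bind often differed in direction. Of 22 pairs with both members measured, 8 had both called. In 6 of these the ligand was lower and the receptor higher, in 1 the ligand was higher and the receptor lower, and in 1 both were lower. The 6 are Tnf with Tnfrsf1a and Tnfrsf1b, Lta with Tnfrsf1a, Tnfrsf1b and Tnfrsf14, and Ltb with Ltbr, so they rest on 3 neighbouring ligand genes and 4 receptors and are not 6 independent pairs. Tnfsf9 was higher where its receptor Tnfrsf9 was lower, and both of these calls ended in several alternatives. Tnfsf4 and Tnfrsf4 were both lower. In 8 further pairs only 1 partner was called, among them Tnfsf13b with each of its 3 receptors and Tnfsf8 with Tnfrsf8. The remaining 6 pairs had neither partner called.

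**Figure D3:**
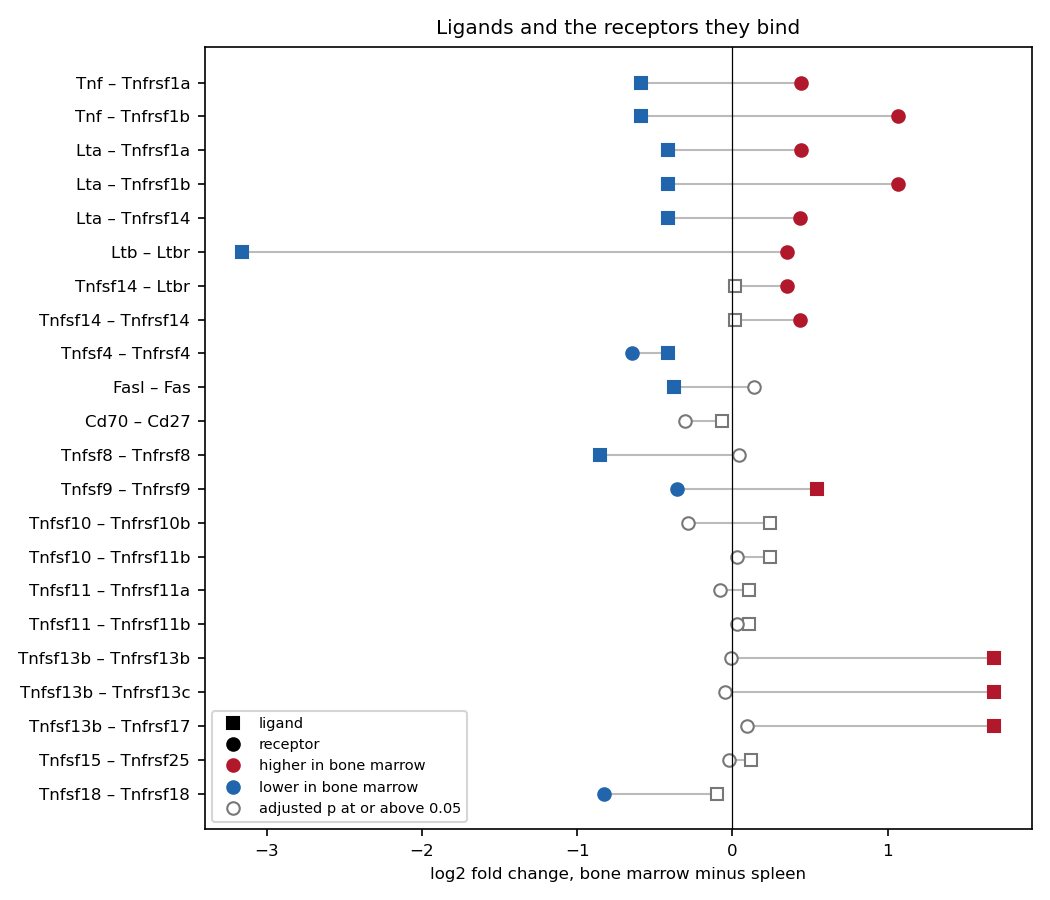
Log2 fold change (x axis, bone marrow minus spleen) of the ligand (square) and the receptor (circle) in each of 22 pairs, filled where the limma adjusted p was under 0.05. In the upper rows Tnf, Lta and Ltb lie left of 0 while their receptors lie right of it.

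Neighbouring members elsewhere were mixed. On chromosome 6, Ltbr and Tnfrsf1a, with 1 protein-coding gene between them, were both higher, while Cd27, with 1 gene between it and Ltbr, was not called. On chromosome 1, Tnfsf4, Tnfsf18 and Fasl are neighbours, of which the outer genes Tnfsf4 and Fasl were lower. On chromosome 17, Tnfsf9 was higher next to Cd70 and Tnfsf14, neither of them called. On chromosome 4, Tnfsf8 was lower next to the uncalled Tnfsf15, and Tnfrsf1b was higher next to the uncalled Tnfrsf8.

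The signalling genes downstream of these receptors were mixed. Of 62 measured genes in 7 lists of signalling genes and relatives, 11 were higher and 15 lower in bone marrow, 41.9% called in all, against 18.5% of all genes. Their median log2 fold change was -0.11, against -0.01 for all genes. The 2 sets differ in brightness, as 4 of the 62 genes were dim on all 8 arrays, against 6592 of all 19938. With the dimmest 40% of genes left out, 3480 of the 11963 genes still tested were called. How far brightness accounts for the higher share called was not tested. The shares of all genes that were higher (9.26%) or lower (9.2%) stand as the background of each list that follows. Of 6 measured genes of the non-canonical NF-kappaB branch, through which the lymphotoxin beta receptor signals, 4 were lower and none higher (median -0.42). The count of lower genes was 2 with median centring and without bone marrow replicate 1 or 3 or replicate 2 or 3 of spleen, where Birc2 and Birc3 were not called (limma adjusted p from 0.055 to 0.097), and 5 after quantile normalization or without spleen replicate 4. Relb, its transcription factor subunit, stood at 427, 461, 422 and 501 in bone marrow, against 1755, 1769, 1673 and 1426 in spleen (-1.87 ± 0.09 SE, 4 arrays per group, limma adjusted p = 2.1e-08). Its partner Nfkb2 was 1.5-fold lower (limma adjusted p = 0.0014), while the kinase gene Map3k14 averaged 933 in bone marrow and 883 in spleen (limma adjusted p = 0.73). Of 7 measured canonical NF-kappaB genes 3 were lower and none higher (median -0.11). These were the inhibitors Nfkbie (-0.55) and Nfkbia (-0.43) and the NF-kappaB subunit gene Rel (-0.43).

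Of 23 adaptors and ubiquitin regulators, 2 were higher and 5 lower (median -0.20), which is 8.7% and 21.7%. With median centring, and without bone marrow replicate 1 or 3 or replicate 2 or 3 of spleen, 3 were lower, because Birc2 and Birc3 are in this list too, and 8 were lower without spleen replicate 4. Traf1, an adaptor induced by NF-kappaB, stood at 610.3, 628, 609 and 833 in bone marrow, against 2370.4, 2601, 2525 and 2289.8 in spleen, and was 3.68-fold lower (-1.88 ± 0.11 SE, 4 arrays per group, limma adjusted p = 5.7e-08). The deubiquitinase Cyld was 1.5-fold lower. Tnip3, an inhibitor of NF-kappaB that binds A20, stood at 931, 936, 653 and 603 in bone marrow, against 116, 124, 71.1 and 104 in spleen, and was 7.54-fold higher (2.92 ± 0.18 SE, limma adjusted p = 1.5e-07). Its relative Tnip2 was 1.24-fold higher (limma adjusted p = 0.028). Tnip2 was no longer called when bone marrow replicate 1 or 3 or any spleen array but replicate 3 was dropped (limma adjusted p from 0.062 to 0.086). Both Traf1 and Tnip3 had groups that lay well apart, though spleen replicate 3 was under the olfactory receptor mark for Tnip3.

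Of 10 measured death receptor signalling genes, 3 were higher and 1 lower (median 0.01). Of these, Casp8 was not called after quantile normalization, with the replicate number as a block, or without bone marrow replicate 2 or 3 or replicate 1 or 2 of spleen (limma adjusted p from 0.051 to 0.064). Mlkl, the effector of necroptosis, stood at 236, 280.4, 248 and 335 in bone marrow, against 81.4, 107, 70.1 and 114 in spleen (1.57 ± 0.15 SE, 4 arrays per group, limma adjusted p = 8.6e-06), and its activating kinase Ripk3 was 1.41-fold higher. Spleen replicates 1 and 3 were under the olfactory receptor mark for Mlkl. The apoptosis gene Diablo was 1.39-fold lower. Of 6 genes of ectodomain shedding 4 were higher and none lower (median 0.35). Frmd8 did not pass the test (limma adjusted p = 0.067), nor did Timp3 (0.17), which was dim on every array. The 4 higher genes were Adam17, which cuts TNF from the membrane, its partner genes Rhbdf2 and Rhbdf1, and Adam10, with log2 fold changes of 0.34, 0.50, 0.36 and 0.46. Of 8 genes named as TNF-induced proteins 1 was higher, Tnfaip2 by 1.98-fold, and 1 lower, Tnfaip8 by 1.33-fold, or 12.5% each way. Without spleen replicate 4, 2 of these genes were lower.

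Of 8 relatives outside the symbol rule, 1 was higher and 3 lower (median -0.14). Cd40, the receptor through which T cells license dendritic cells, stood at 706, 665, 671 and 826 in bone marrow, against 833, 1045, 1037 and 929 in spleen (-0.42 ± 0.10 SE, 4 arrays per group, limma adjusted p = 0.0088). Its ligand Cd40lg stood at 28.2 to 37.0 in bone marrow and 32.9 to 35.0 in spleen, under the olfactory receptor mark on every array. Relt was 1.48-fold lower. Of its family members, Rell1 was 1.34-fold higher and Rell2 1.29-fold lower (limma adjusted p = 0.0045). Markers of monocytes, macrophages and neutrophils were higher in the same bone marrow samples as these signalling genes, and their part was not tested.

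**Figure D4:**
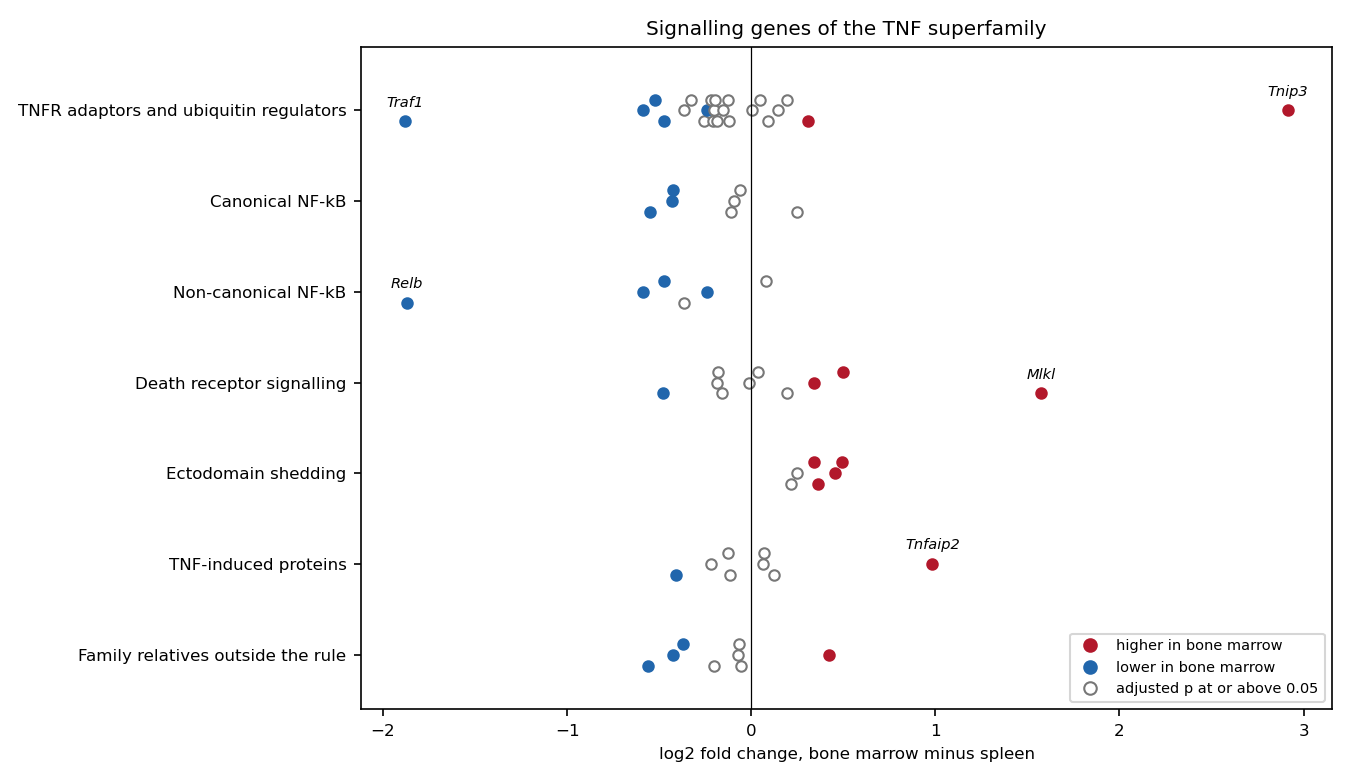
Log2 fold change (x axis, bone marrow minus spleen) of each measured gene in 7 lists of signalling genes, filled where the limma adjusted p was under 0.05, with names beyond 0.9 in either direction. Relb and Traf1 stand near -1.9 and Tnip3 at 2.92, while the 6 genes of the shedding list, 4 of them called, lie between 0.22 and 0.50.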

How the data were processed

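Expression was measured on 8 Affymetrix mogene 1.0 ST arrays, 4 of bone marrow and 4 of spleen dendritic cells. The deposited intensities, 1 per probe set and array on a linear scale, came from the authors' run of Expression Console 1.4 (Affymetrix), as named in the submitters' processing notes. The sources used here do not say how background, normalization and summarization were set. Per the labels' protocols, cDNA was made from picogram to nanogram amounts of RNA, and such amplification can add spread between arrays. The number of arrays limits the precision.

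Of 35556 probe sets, 21789 had exactly 1 gene symbol in the platform's annotation, 1621 had several and 12146 were not listed. The brightest probe set per gene was kept, which left 19938 genes. A linear model per gene was fitted to log2 intensities in R 4.3.3 with limma 3.58.1 (lmFit, eBayes, no filter), with Benjamini-Hochberg adjustment over all genes and a threshold of 0.05. Per the labels, samples with the same replicate number also share an identifying number in both tissues, which was read as the same mouse. The paired deviations from the group means correlated across genes at 0.10, -0.09, -0.18 and -0.05, and the replicate number was left out of the fit and entered as a block in an alternative. Every member is named, with up to 2 genes per direction of each signalling list and Cd40 and Cd40lg. Genes named beyond that rule (Map3k14, Birc2, Birc3, Rel, Casp8, Adam17, Rhbdf1, Frmd8, Timp3, Rell2 and the marker genes) were picked with their values in view. The members and gene lists were chosen with earlier results of these data known. Other alternatives were quantile normalization, median centring, leaving out the dimmest 40% of genes, averaging probe sets, an intensity trend and leaving out each array. Promoters are from RefSeq, build GRCm38.p6, where 32 of 39 members had an entry.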

Additional observations from a re-analysis of the deposited data

Results flagged for a closer look

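In 5 of 78 groups of 4 arrays tested (39 members in both tissues), a single array lay far from the other 3, and chance flags about 1 in 20 such groups. Tnfrsf14 in spleen replicate 4 stood at 789, where the other spleen arrays stood at 916 to 931. Tnfrsf9 in spleen replicate 3 stood at 178, where the other spleen arrays stood at 210.2 to 214. Cd70 in spleen replicate 3 stood at 47.4, where the others stood at 56.3 to 57.4. Tnfrsf22 in spleen replicate 1 stood at 177, where the others stood at 137 to 142. Tnfsf18 in bone marrow replicate 1 stood at 48.7, where the others stood at 40.5 to 41.0.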

How the results depend on the processing

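Of the 17 called members, 15 kept their direction and their side of the threshold in each of the 14 alternatives in which they were tested, and the exceptions were Tnfsf9 and Tnfrsf9. With the dimmest 40% of genes left out, 3 ligands were lower, because Fasl, Lta and Tnfsf4 were then not tested. Leaving out 1 array at a time gave 1 to 2 ligands higher, 6 lower, 6 receptors higher, 2 to 4 lower and 22 to 28 signalling genes called. With the replicate block, 24 signalling genes were called, and Tnfrsf9 was the one member whose call ended (log2 fold change -0.36, limma adjusted p = 0.061). That block changed no other call of a member. Only uncalled members changed sign, all of them when 1 array was left out. Their log2 fold changes then ran from -0.016 to 0.0608 for Eda2r, -0.0207 to 0.1207 for Tnfrsf11b, -0.0417 to 0.0197 for Tnfrsf13b, -0.136 to 7e-04 for Tnfrsf19, -0.0866 to 0.0365 for Tnfrsf22, -0.0481 to 0.0085 for Tnfrsf25, -0.071 to 0.0015 for Tnfrsf26, -0.0134 to 0.0864 for Tnfrsf8 and -0.0657 to 0.1309 for Tnfsf14. The cause was not tested. Without detection calls, the fold changes of dim members may be compressed.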
